A study of Mus musculus with 15 samples.

Results

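The 6 transcription factors of the podocyte lineage Wt1, Tcf21, Lmx1b, Foxc1, Foxc2 and Klf15, chosen by name, were examined in cultured mouse podocytes with and without mechanical stretch. All were found by their Ensembl identifiers among the 55416 genes of the count table. For Wt1, the table of transcript abundances held 8 of its annotated transcripts among 140789. Of the 6 genes, 4 had enough reads to be tested (Wt1, Lmx1b, Foxc1 and Klf15), whereas Tcf21 and Foxc2 were close to undetected. Under high stretch, where 3.47% of all genes tested passed, Wt1 and Klf15 fell, to 19.4% and 37.1% of the unstretched level. Without 1 unstretched sample that stood apart, the Wt1 estimate was 31% of the unstretched level, and both calls were lost in several fits that left out another sample. Both factors also had lower estimates under low stretch without passing the test, and neither Lmx1b nor Foxc1 passed the test at either amplitude. With a block on runs of sample codes, Wt1, Klf15 and Lmx1b passed under low stretch, in a fit where 6106 of all 21672 genes tested passed.

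Podocytes are the epithelial cells that wrap the glomerular capillaries, and their foot processes and slit diaphragms form part of the filter that keeps protein in the blood. WT1, a zinc finger protein, and LMX1B, a LIM homeodomain protein, are required both to form these cells and to keep them mature. Alongside them act the basic helix-loop-helix factor TCF21 and the forkhead factors FOXC1 and FOXC2. These factors bind regulatory regions of podocyte genes such as Nphs1 and Podxl. KLF15 is a Krüppel-like zinc finger factor that is induced by glucocorticoids and is known in podocytes for promoting the differentiated state.

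Poly(A) RNA was sequenced from 15 samples of SVI cells, a conditionally immortalised mouse podocyte line, which were differentiated and seeded on flexible silicone membranes. In experiment 1, 6 low-stretch samples (membrane deflection of 5 to 6 mm on the sample labels) accompanied 3 unstretched samples, and in experiment 2, 3 high-stretch samples (7 to 8 mm) accompanied 3 unstretched samples. The design text gives 6 mm and 8 mm instead of the ranges. Amplitude and experiment therefore cannot be told apart, so comparisons were made within an experiment. All samples come from 1 cell line, no genetic change or added agent is named for any group, and nothing in the labels says that samples of a group were separate cultures, so p-values measure the spread between these samples, which may be technical.

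The libraries held between 172211836 and 396658285 counts, so 3 counts, the upper limit that a count of 0 allows, correspond to between 0.00756 and 0.0174 CPM (counts scaled to library size) in 1 library. These limits cover counting error only. The labelled cell type was checked against podocyte markers. Podxl, Synpo and Actn4, which podocytes share with other cells, had group means between 123 and 184, between 316 and 660, and between 658 and 1800 CPM. The slit diaphragm gene Nphs1 had group means between 0.289 and 0.673 CPM, above the limit of detection but far below these. Ptpro, a phosphatase of the foot process, gave 29 counts in all samples and did not exceed 0.0149 CPM, so it was near 0. In bulk RNA, fewer cells of a type and less RNA per cell cannot be told apart. In experiment 2, unstretched replicate 3 stood apart from the other unstretched samples for Wt1, and the Wt1 values of that group are given with and without it.

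Wt1 was lower in every stretched sample than in any unstretched sample of the same experiment. In unstretched cells of experiment 1 it was at 4.87, 4.11 and 6.04 CPM, and in the 6 low-stretch samples at 1.42, 2.51, 1.62, 1.23, 3.99 and 2.94 CPM. All 6 low-stretch samples lay below all 3 unstretched ones, with low-stretch replicate 5 just under the lowest unstretched value. In experiment 2 the unstretched samples were at 1.8, 1.7 and 4.93 CPM and the high-stretch samples at 0.446, 0.569 and 0.629 CPM. Again the groups did not overlap, and the third unstretched sample was far above the other two. The group means were 5.01 ± 0.975 (SD, n = 3), 2.29 ± 1.07 (n = 6), 2.81 ± 1.83 (n = 3) and 0.548 ± 0.0932 CPM (n = 3), in that order. The mean of the unstretched group of experiment 2 was 1.75 CPM without replicate 3 (n = 2). When the 4 groups are ordered by level, neighbouring groups overlapped except for the low-stretch and high-stretch groups, the 2 lowest, which come from different experiments.

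**Figure D1:**
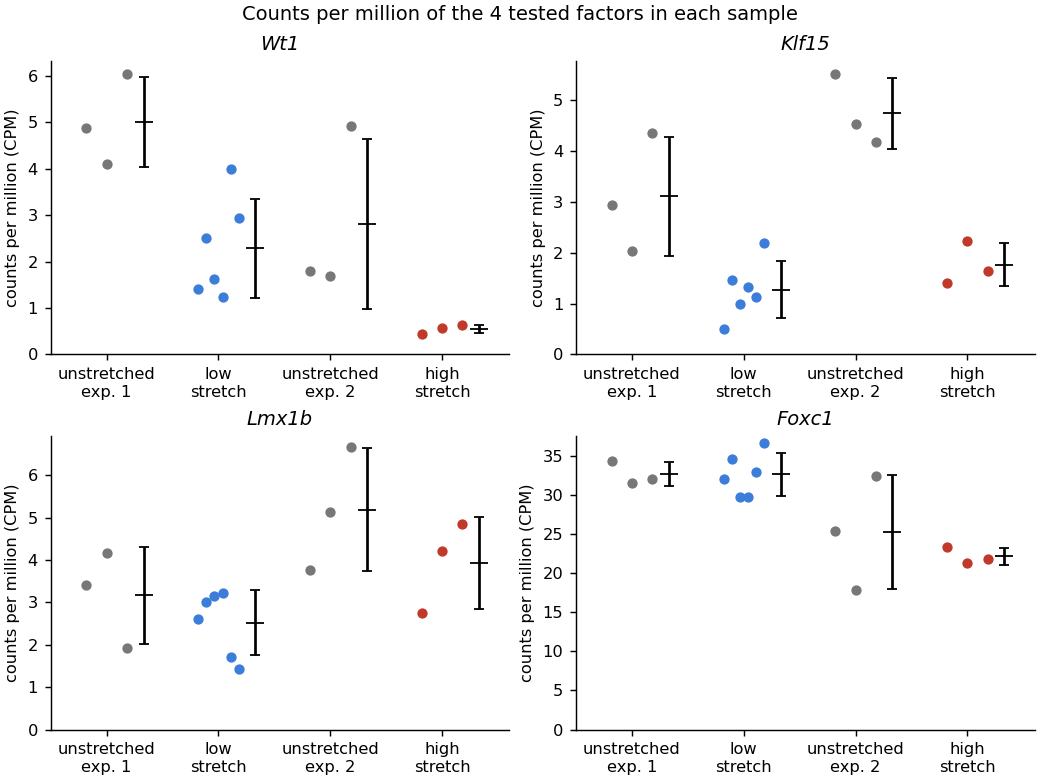
CPM (vertical axes from 0) of Wt1, Klf15, Lmx1b and Foxc1 in each of the 15 samples (points), by group (horizontal axis); bars show the mean ± SD of each group. The 3 high-stretch samples of Wt1 sit between 0.446 and 0.629 CPM, and Foxc1 stays between 17.9 and 36.6 CPM in all samples.

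Under high stretch Wt1 fell by 2.36 on the log2 scale (SE 0.45, 95% interval -3.39 to -1.33, adjusted p = 0.0311 edgeR quasi-likelihood F test, Benjamini-Hochberg adjusted over all genes tested). Of 18524 genes tested in that comparison, 3.47% passed at 0.05, 2.16% with lower and 1.31% with higher levels. Under low stretch its estimate was -1.16 (SE 0.33, 95% interval -1.89 to -0.43, adjusted p = 0.0688), where 5.45% of 21672 genes passed, 3.6% with lower and 1.85% with higher levels. Groups that did not overlap, with all stretched samples lower, were seen for 6.84% of genes under low stretch and 10.3% under high stretch. Without unstretched replicate 3 the high-stretch estimate was -1.67 (adjusted p = 0.00358), and the call was lost without unstretched replicate 1 (adjusted p = 0.0693) or without high-stretch replicate 1 (0.162), 2 (0.0896) or 3 (0.155), with estimates between -2.6 and -2.24. Under low stretch, DESeq2 called Wt1 lower (adjusted p = 0.01), as did a fit without a filter on low counts (0.0491) and a fit without low-stretch replicate 5 (0.021). DESeq2 called 2837 of all 21672 genes there. Wt1 passed in 4 of 7 alternative settings (highest adjusted p 0.108) and in 1 of 9 fits without 1 sample (highest 0.278).

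**Figure D2:**
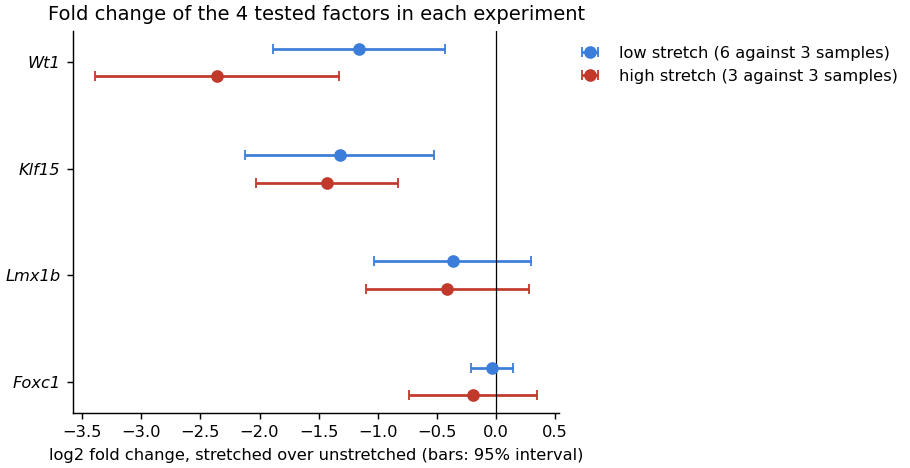
Log2 fold change of stretched over unstretched samples (horizontal axis) of the 4 tested factors under low stretch (6 against 3 samples) and high stretch (3 against 3 samples), with 95% intervals from edgeR. The intervals of Wt1 and Klf15 lie below 0 in both comparisons and those of Lmx1b and Foxc1 include 0.

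The transcripts of Wt1 were examined because WT1 is made in several forms. Alternative use of 2 donor sites at the end of exon 9 adds or leaves out 9 bases that encode lysine, threonine and serine (KTS) between the third and the fourth zinc finger. Forms without KTS are known as the DNA-binding activators, and forms with it bind RNA and DNA less specifically. A separate exon of 51 bases, exon 5, adds 17 residues in mammals. In the GENCODE M21 annotation, 9 transcripts of Wt1 are listed. No abundance was given for Wt1-209, which has the upstream first exon of the gene and carries KTS and exon 5. Of the other 8, only Wt1-201, Wt1-202 and Wt1-208 had more than a trace of abundance here. Wt1-201 carries KTS and lacks exon 5, and Wt1-202 lacks KTS and carries exon 5. Both start in the same exon within the first intron, 4354 bases downstream of the annotated start of the gene. Wt1-208 is annotated as a retained-intron transcript of 941 bases in 4 exons. Its annotated exons show neither form of the KTS junction.

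The bases that distinguish the 2 coding transcripts are shown with their surroundings, 5′ to 3′ along the transcript, from the GENCODE M21 transcript sequences. Capitals mark the 9 bases between the donor sites of exon 9:
Wt1-201, bases 961 to 1041: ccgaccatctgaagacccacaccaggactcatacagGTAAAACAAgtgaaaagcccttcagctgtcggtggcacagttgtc
Wt1-202, bases 1012 to 1083: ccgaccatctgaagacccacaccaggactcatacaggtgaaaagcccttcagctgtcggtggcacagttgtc
At the other difference, capitals mark exon 5:
Wt1-201, bases 545 to 604: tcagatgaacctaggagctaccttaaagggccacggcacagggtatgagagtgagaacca
Wt1-202, bases 545 to 655: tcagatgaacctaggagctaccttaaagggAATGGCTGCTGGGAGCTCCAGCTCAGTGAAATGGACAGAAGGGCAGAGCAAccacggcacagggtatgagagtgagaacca
Of the coding transcripts with a given abundance, only these 2 were above a trace. Every estimate for KTS is therefore at the same time the reverse estimate for exon 5, and the contributions of each cannot be told apart. The transcripts begin their coding sequence in the intronic exon, with the start codon in capitals:
Wt1-201 and Wt1-202, bases 261 to 299: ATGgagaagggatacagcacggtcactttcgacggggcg

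Abundances are given in TPM, transcript abundances that are scaled by length and to a fixed total and carry no depth. The transcripts with the upstream first exon and a given abundance, Wt1-203, Wt1-204, Wt1-205 and Wt1-207, were listed at 0 in all samples, except for 0.008 TPM of Wt1-207 in unstretched replicate 3 of experiment 1. Wt1-209, which also has that exon, was not measured. An exact 0 in such estimates can be a failed estimate. The retained-intron transcript Wt1-206 was also listed at 0 in all samples.

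Wt1-201, with KTS, was at 2, 1.493 and 2.282 TPM in the unstretched samples of experiment 1 and at 0.416, 0.846, 0.475, 0.453, 1.31 and 1.138 TPM in the low-stretch samples. Wt1-202, without KTS, was at 1.035, 1.057 and 1.444 TPM in those unstretched samples and at 0.307, 0.634, 0.313, 0.149, 0.948 and 0.539 TPM in the low-stretch ones. Both transcripts were lower in all 6 low-stretch samples than in any unstretched sample of that experiment. The share of all transcripts with groups apart in this way was not counted for either experiment. For genes, by CPM, this share was 6.84% under low and 10.3% under high stretch. In experiment 2, Wt1-201 was at 0.467, 0.445 and 1.338 TPM without stretch and at 0.142, 0.137 and 0.089 TPM with it. Wt1-202 was at 0.219, 0.167 and 1.114 TPM without stretch and at 0.074, 0.048 and 0.135 TPM with it. The groups did not overlap here either, and the third unstretched sample was again the highest. Wt1-208 was at 2.227, 2.046 and 3.046 TPM in unstretched cells of experiment 1 and at 0.755, 1.078, 0.87, 0.701, 2.156 and 1.459 TPM under low stretch, so these groups overlapped through low-stretch replicate 5. In experiment 2 it was at 0.537, 0.296 and 2.297 TPM without and at 0.126, 0.194 and 0.142 TPM with high stretch, and the groups did not overlap. The unstretched means of experiment 2 without replicate 3 were 0.456, 0.193 and 0.416 TPM for Wt1-201, Wt1-202 and Wt1-208 (n = 2). This retained-intron form took a mean of between 41.6% and 49.2% of the gene's TPM in the 4 groups.

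The balance between the coding forms did not pass a test. The form with KTS took 61.9% ± 3.71 of the coding Wt1 TPM in unstretched cells of experiment 1 (SD, n = 3) and 62.7% ± 7.33 under low stretch (n = 6), a difference of 0.76 percentage points (exact two-sided permutation test, p = 0.917). In experiment 2 it took 65.1% ± 9.45 without stretch and 59.9% ± 17.9 with high stretch (n = 3 each, exact two-sided permutation p = 0.7, where 3 against 3 cannot go below 0.10). Without unstretched replicate 3 the unstretched share was 70.4% (n = 2), and the difference from high stretch was -10.53 percentage points (exact permutation p = 0.7). The 3 high-stretch shares were 65.7%, 74.2% and 39.8%, in libraries with only 108, 82 and 153 Wt1 counts. With 3 samples per group the test cannot reach 0.05 at any depth, so it cannot decide whether the share differed under high stretch. The retained-intron share was 43.9% ± 1.4 without and 49.2% ± 4.3 with low stretch (exact p = 0.107), and 41.6% ± 8.11 without (38.3% without unstretched replicate 3) and 42.2% ± 7.76 with high stretch (exact p = 1). After Benjamini-Hochberg adjustment over these 4 tests the lowest p was 0.428. In the limma test of transcript usage, 0 of the 3 Wt1 transcripts tested passed in either comparison, with lowest adjusted p-values of 0.505 for Wt1-208 under low stretch and 0.617 for Wt1-202 under high stretch (unadjusted p = 0.0539 and 0.0511). With 0.01 instead of 0.1 TPM added to each abundance, the unadjusted limma p for Wt1-202 under high stretch was 0.532. Across all transcripts 0.0145% of 27672 passed under low stretch and 0.0% of 23375 under high stretch, where 1906 had an unadjusted p under 0.05.

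**Figure D3:**
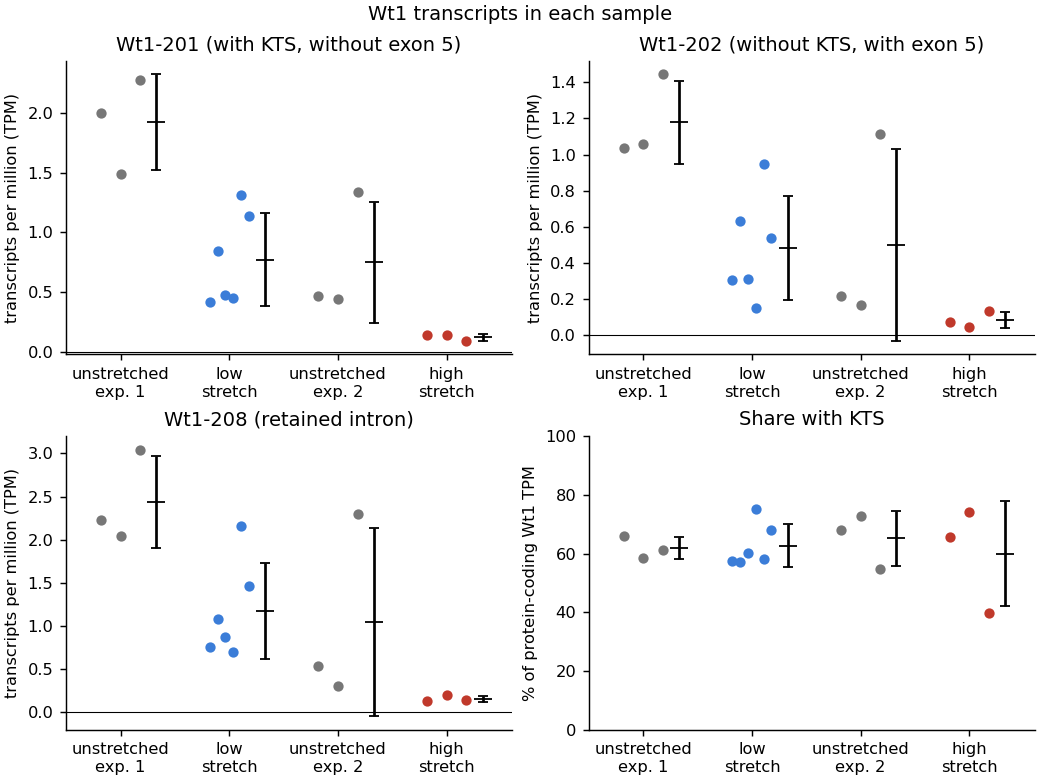
TPM of the 3 Wt1 transcripts above a trace and the share of Wt1-201, with KTS, in the coding Wt1 TPM (in %), in each of the 15 samples (points) by group, with the group mean ± SD (bars). Wt1-201 and Wt1-202 separate stretched from unstretched samples in both experiments, Wt1-208 overlaps in experiment 1 (up to 2.156 TPM under low stretch, down to 2.046 TPM without), and the share with KTS overlaps, with 1 high-stretch sample at 39.8%. How many of all transcripts separate in this way was not counted.

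Lmx1b, the LIM homeodomain factor of the nail-patella syndrome, was at 3.42, 4.16 and 1.92 CPM in unstretched cells of experiment 1 and at 2.61, 3.01, 3.14, 3.22, 1.71 and 1.43 CPM under low stretch. In experiment 2 it was at 3.76, 5.14 and 6.66 CPM without and at 2.74, 4.22 and 4.84 CPM with high stretch. The groups overlapped in both experiments. The log2 differences were -0.36 (SE 0.30, 95% interval -1.03 to 0.30, adjusted p = 0.489) and -0.41 (SE 0.30, interval -1.10 to 0.28, adjusted p = 0.675). Both intervals include 0. With the run of sample codes as a block, Lmx1b passed under low stretch (adjusted p = 0.0175).

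Foxc1, a forkhead factor and the gene with the most reads of the 6 examined, was at 34.4, 31.6 and 32.1 CPM in unstretched cells of experiment 1. Under low stretch it was between 29.8 and 36.6 CPM, with a median of 32.5. In experiment 2 it was at 25.4, 17.9 and 32.5 CPM without and at 23.4, 21.3 and 21.8 CPM with high stretch. The groups overlapped, and the unstretched samples of experiment 2 spanned a wider range than any other group. The log2 differences were -0.03 (SE 0.08, interval -0.21 to 0.15, adjusted p = 0.864) under low stretch and -0.19 (SE 0.23, interval -0.73 to 0.35, adjusted p = 0.85) under high stretch. The interval under low stretch reached no further than 0.21 from 0.

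Foxc2, its paralogue, gave 9 counts in all 15 samples together, at most 3 in 1 sample and 7 of them in the low-stretch group. Tcf21, which is needed for the early glomerulus, gave 2 counts in all, 1 in unstretched replicate 1 of each experiment. Its total of 0 in the 6 low-stretch samples allows up to 0.00167 CPM over the group, and its 0 in the 3 high-stretch samples up to 0.00404 CPM. Neither gene passed the filter on low counts, so neither was tested, and a difference between groups was not detectable at this depth.

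Klf15 was at 2.94, 2.04 and 4.36 CPM in unstretched cells of experiment 1 and at 0.5, 1.46, 0.995, 1.33, 1.14 and 2.19 CPM under low stretch. The groups overlapped through low-stretch replicate 6, which lay above the lowest unstretched sample. In experiment 2 it was at 5.52, 4.53 and 4.17 CPM without stretch and at 1.41, 2.23 and 1.65 CPM with high stretch, and the groups did not overlap. Under high stretch Klf15 fell by 1.43 on the log2 scale (SE 0.26, 95% interval -2.03 to -0.83, adjusted p = 0.0274). Under low stretch the estimate was of similar size, -1.32 (SE 0.36, interval -2.12 to -0.52), with an adjusted p of 0.0587. The high-stretch call was lost without unstretched replicate 1 (adjusted p = 0.137) or without high-stretch replicate 1 (0.135) or 3 (0.177). The low-stretch estimate passed with DESeq2 (adjusted p = 0.00595), with no filter on low counts (0.0406), with all 15 samples in one fit (0.0391) and without low-stretch replicate 6 (0.0275). It passed in 4 of 7 alternative settings (highest adjusted p 0.0833) and in 1 of 9 fits without 1 sample (highest 0.296).

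On the length-scaled TPM scale, which allows levels of different genes to be compared, Foxc1 had the highest group means of the 6 genes in every group, at 11 ± 0.603, 9.96 ± 1.27, 5.90 ± 2.86 and 4.61 ± 0.711 TPM in the unstretched and low-stretch groups of experiment 1 and the unstretched and high-stretch groups of experiment 2. Wt1 came next in experiment 1 without stretch, at 5.55 ± 1.12 TPM, and was the lowest of the 4 tested genes under high stretch, at 0.362 ± 0.0186 TPM. Klf15 was at 2.74 ± 0.977, 1.04 ± 0.476, 2.79 ± 0.427 and 0.946 ± 0.121 TPM, and Lmx1b at 1.47 ± 0.535, 1.06 ± 0.322, 1.73 ± 0.763 and 1.16 ± 0.251 TPM. Tcf21 and Foxc2 had group means of at most 0.00227 TPM. Summed over coding transcripts only, Wt1 was at 3.11, 1.25, 1.25 and 0.208 TPM, with 0.649 TPM in unstretched cells of experiment 2 without replicate 3.

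The samples' description codes have the form of plate positions and follow each other without a gap. For the comparison this series was divided into 3 runs per experiment, each beginning with 1 unstretched sample. The labels neither mark these runs nor say what the codes record. Within these 6 runs, stretched samples were compared with the unstretched sample of the same run. Wt1 was lower in stretched samples in 6 of 6 runs, with log2 differences of -1.36, -1.54 and -0.82 in experiment 1 and -2, -1.56 and -2.96 in experiment 2. Klf15 was lower in 6 of 6 runs, with differences from -1.97 to -0.83. Lmx1b was also lower in 6 of 6 runs, with smaller differences that lay between -0.46 and -0.28 and varied less among runs than its level did. Foxc1 was lower in 4 runs and higher in 2, with differences from -0.58 to 0.25. Lower values in all runs were found in both experiments for 11.3% of the 18403 genes tested in both.

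With the run as a block, 3 of the 4 tested factors passed under low stretch: Wt1 (adjusted p = 0.000894), Klf15 (0.00698) and Lmx1b (0.0175). In that fit 6106 genes passed of the 21672 tested, against 1181 without the block. Under high stretch the run block called Wt1 and Klf15, as the fit without it did. In experiment 2 the runs pair samples of the same replicate number.

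**Figure D4:**
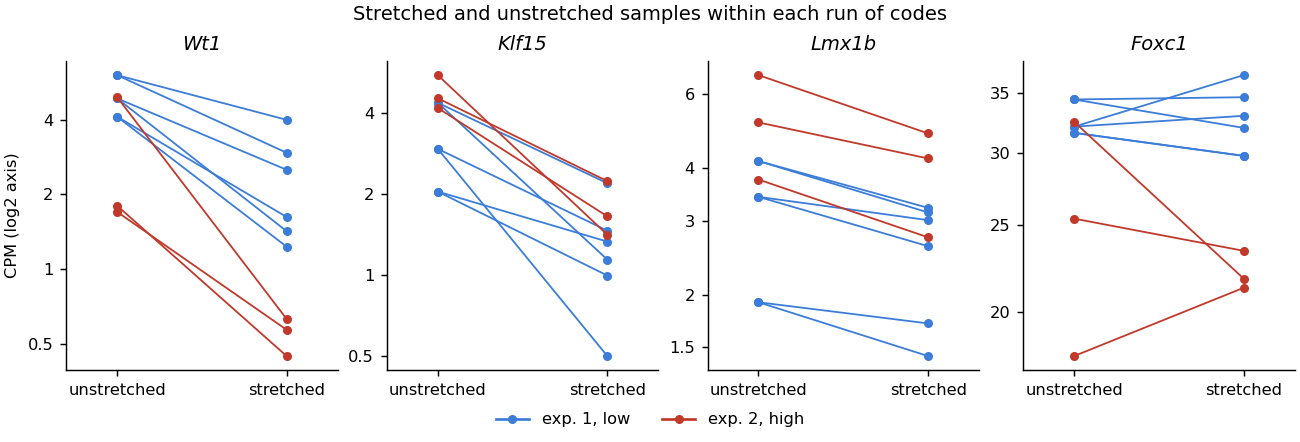
CPM (log2 vertical axis) of the unstretched and stretched samples of each run of codes, joined by lines, for Wt1, Klf15, Lmx1b and Foxc1; experiment 1 has 2 stretched samples per run and experiment 2 has 1. All lines of Wt1, Klf15 and Lmx1b slope down, and those of Foxc1 go both ways.

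The difference between the high-stretch and low-stretch effects was tested directly. For Wt1 it was -1.22 (SE 0.58, 95% interval -2.45 to 0.01, unadjusted p = 0.0523, adjusted p = 0.9998), and without unstretched replicate 3 of experiment 2 it was -0.50. For Klf15, Lmx1b and Foxc1 it was -0.13, -0.06 and -0.18, each with an adjusted p of 0.9998. By edgeR 0 of the 22015 genes tested passed in this contrast (0.0%), where 547 had an unadjusted p under 0.05. DESeq2 also called 0, and a fit with the run block called 3.

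Unstretched cells of the 2 experiments differed widely, with 62.5% of 20707 genes called, while 0 of the 4 tested factors passed with edgeR or DESeq2, and 0 had an unadjusted p under 0.05. Experiment 2 against experiment 1 gave -0.86 for Wt1 (SE 0.40, adjusted p = 0.0915), 0.69 for Lmx1b (SE 0.33, adjusted p = 0.0963), -0.40 for Foxc1 (SE 0.22, adjusted p = 0.139) and 0.59 for Klf15 (SE 0.30, adjusted p = 0.115). Without unstretched replicate 3 of experiment 2, Wt1 (-1.55, adjusted p = 0.000359) and Foxc1 (-0.63, adjusted p = 0.00885) passed. Without unstretched replicate 3 of experiment 1, Klf15 passed (0.91, adjusted p = 0.041).

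Lists of related genes are described by their counts and medians, to be read against the shares over all genes, which were 3.6% lower and 1.85% higher under low stretch and 2.16% lower and 1.31% higher under high stretch. Of 21 genes reported as WT1 targets in podocytes, 19 were tested under low stretch, where 2 fell and 0 rose, and 18 under high stretch, where 2 fell and 1 rose. Plce1, a phospholipase C whose loss causes nephrotic syndrome, fell in both, with log2 changes of -1.96 (SE 0.23, adjusted p = 0.00314) under low and -2.48 (SE 0.45, adjusted p = 0.0262) under high stretch. Npnt, the matrix ligand nephronectin, fell by 0.90 (SE 0.20, adjusted p = 0.03) and 1.10 (SE 0.21, adjusted p = 0.0311). Areg, an EGF receptor ligand, rose by 3.19 under high stretch (SE 0.37, adjusted p = 0.00641) from 0.0328 to 0.307 CPM, so few reads carry it. For Podxl, the main sialoglycoprotein of the foot process surface, the differences were -0.43 and -0.32 (adjusted p = 0.0762 and 0.471). The median over the tested targets was 0.01 under low and -0.1 under high stretch, against 0.01 and -0.02 over all genes.

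Among 24 podocyte identity and slit diaphragm genes, which share 10 members with the WT1 targets, 2 rose and 3 fell of 22 tested under low stretch, and 2 rose and 4 fell of 21 under high stretch (over all genes 1.85% rose and 3.6% fell, and 1.31% rose and 2.16% fell). Those that fell in both were Plce1, Npnt and Clic5, a protein of the foot process cytoskeleton (-1.59, SE 0.31, and -1.91, SE 0.34; adjusted p = 0.0176 and 0.0253). Dag1, dystroglycan, was the additional gene that fell under high stretch (-0.93, adjusted p = 0.0242) and was chosen for naming after its value was seen. The 2 that rose were Nes, the intermediate filament nestin (0.97, SE 0.13, and 1.47, SE 0.23; adjusted p = 0.00506 and 0.0175), and Col4a3, a chain of the mature glomerular basement membrane (1.00, SE 0.26, and 2.88, SE 0.41; adjusted p = 0.0495 and 0.0124), which had group means of at most 0.516 CPM. Col4a3 was also the 1 gene called among the genes reported as LMX1B targets, of which 6 were tested under low and 4 under high stretch. Their medians were 0.45 and 0.69, and Col4a4 (0.02 and 0.80, adjusted p = 0.97 and 0.215) and Arl4c (0.44 and 0.57, adjusted p = 0.0779 and 0.225) did not pass.

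**Figure D5:**
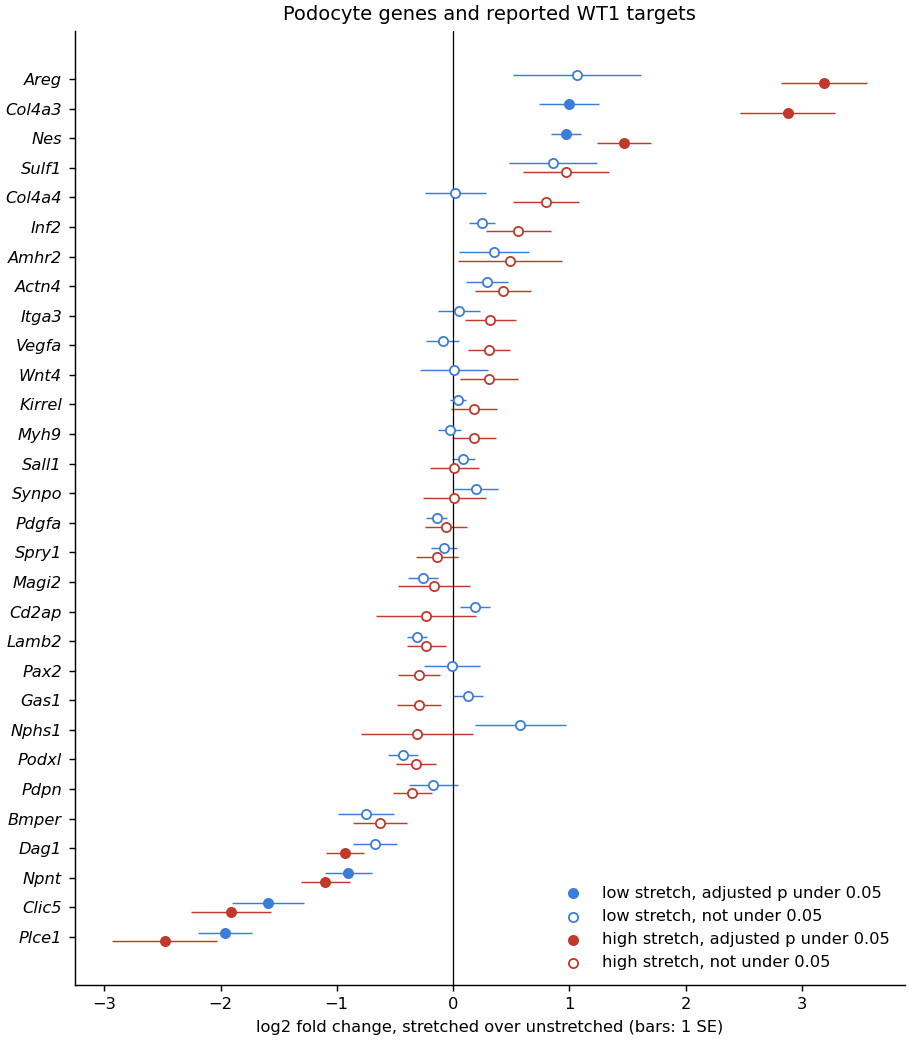
Log2 fold change (horizontal axis, bars show 1 SE) of 30 podocyte identity genes and reported WT1 targets tested in both comparisons, under low and high stretch; filled points have an adjusted p under 0.05. Plce1, Clic5 and Npnt are filled on the left in both comparisons and Nes and Col4a3 on the right.

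Other transcription factors of podocyte and nephron development mostly did not pass the test. Of 23, 18 were tested in each comparison, and 1 rose under low stretch, Emx2, a homeobox factor of the early nephron (0.48, SE 0.10, adjusted p = 0.0225), and 0 passed under high stretch (7 with an unadjusted p under 0.05, and 3 called by DESeq2), where Lhx1 was at -1.45 (SE 0.35, adjusted p = 0.0689), Emx2 at 0.61 (SE 0.18, adjusted p = 0.125) and Foxd1 at -1.04 (SE 0.30, adjusted p = 0.128). Over all genes under high stretch, 2705 of 18524 had an unadjusted p under 0.05, and DESeq2 called 1403. The medians of the list were 0.12 and 0.08.

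Among 12 cofactors and partners of the factors, 0 of the 10 tested passed with edgeR in either comparison. An unadjusted p under 0.05 was seen for 3 under low and 1 under high stretch, and DESeq2 called 2 and 1. Over all genes it was seen for 5104 of 21672 and 2705 of 18524, and DESeq2 called 2837 and 1403. Basp1, a corepressor of WT1, had the lowest p, with 0.57 (SE 0.17, adjusted p = 0.0742) and 0.93 (SE 0.22, adjusted p = 0.0677). In the Klf family, 13 of 16 relatives of Klf15 were tested. Klf11 rose under low stretch (0.57, SE 0.12, adjusted p = 0.0242), and Klf2 (1.35, SE 0.26, adjusted p = 0.032), Klf4 (1.61, SE 0.35, adjusted p = 0.0494) and Klf13 (1.18, SE 0.20, adjusted p = 0.0228) rose under high stretch, where 1.31% of all genes rose (1.85% under low stretch). None of the 13 relatives passed with a lower level in either comparison.

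Genes that the glucocorticoid receptor induces were examined because Klf15 is one of them. Of 8, including the receptor gene Nr3c1, 7 were tested and 1 passed, Dusp1, a MAP kinase phosphatase, which rose by 1.68 (SE 0.27, adjusted p = 0.00914) and by 1.37 (SE 0.29, adjusted p = 0.0456). Over all genes 1.85% rose and 3.6% fell under low stretch, and 1.31% rose and 2.16% fell under high stretch. Tsc22d3 (-0.34 and -0.41, adjusted p = 0.0908 and 0.271), Sgk1 (0.63 and 0.79, adjusted p = 0.0593 and 0.217) and Klf9 (-0.19 and -0.34, adjusted p = 0.263 and 0.792) did not pass. Of 5 reported KLF15 targets in branched-chain and proline catabolism, Prodh, proline dehydrogenase, fell by 0.74 (SE 0.14, adjusted p = 0.0138) and by 1.24 (SE 0.25, adjusted p = 0.041), from 0.946 to 0.578 CPM and from 0.794 to 0.336 CPM. Gpt, Bckdha and Bckdhb, with differences between -0.41 and 0.05, did not pass.

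Of 12 genes that neighbour the factors in the genome, 11 were tested under low and 8 under high stretch. Over all genes 3.6% fell and 1.85% rose under low stretch, and 2.16% fell and 1.31% rose under high stretch. Fendrr, a long noncoding RNA next to Foxf1 in the Foxc2 region, fell under low stretch (-0.94, SE 0.19, adjusted p = 0.0187) and had -0.70 (adjusted p = 0.209) under high stretch. Foxf2, close to Foxc1, rose under high stretch by 1.88 (SE 0.33, adjusted p = 0.025), from 0.398 to 1.48 CPM. Wt1os, the antisense RNA that starts beside Wt1, held 103 counts in all samples against 11582 for Wt1, and its annotated span does not overlap that of Wt1. No gene on the opposite strand with more than 2 counts overlaps any of the 6 factors in the annotation.

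Markers of other cell types were measured alongside. Of the parietal epithelial and tubule markers, 3 of 6 tested fell under low stretch (Lrp2 -0.65, Cdh16 -0.93 and Cdh1 -1.18 on the log2 scale; adjusted p = 0.0227, 0.0343 and 0.0391) and 2 of 6 under high stretch (Cdh16 -2.09 and Aqp1 -3.62; adjusted p = 0.00592 and 0.0135), where 3.6% and 2.16% of all genes fell. Pax8, named after its value was seen, was at 0.24 and -0.08 (adjusted p = 0.26 and 0.917). The summed level of the 11 markers ranged from 1400 to 2040 CPM in unstretched and from 787 to 1230 CPM in low-stretch samples, and from 1900 to 2380 and from 756 to 831 CPM in experiment 2, while Krt8, Krt18, Slc34a1, Umod and Epcam stayed at or below 0.0833 CPM. The part of these markers in the lower levels of Wt1 and Klf15 was not tested. Of 7 tested mesangial and fibroblast markers of 9, 1 fell under low stretch, Pdgfrb (-0.56, SE 0.11, adjusted p = 0.0199). Under high stretch 0 of 7 passed, and 2 had an unadjusted p under 0.05. Acta2, at 0.86 and 0.98 (adjusted p = 0.136 and 0.269), passed in neither main fit and in 2 of 7 alternative settings in each comparison. The summed level, mostly Acta2, ranged from 1270 to 2010 CPM without and from 1530 to 4030 CPM with low stretch, and from 2650 to 7100 and from 6750 to 10500 CPM in experiment 2. The 7 endothelial markers summed to at most 0.528 CPM and the 6 leukocyte markers to at most 2.24 CPM in any sample. Tested were 3 endothelial and 4 leukocyte markers under low stretch, and 2 and 3 under high stretch. By edgeR 0 of either passed. Under high stretch DESeq2 called 1 of each, and 2 endothelial and 1 leukocyte marker had an unadjusted p under 0.05. Over all genes there, DESeq2 called 1403 of 18524, and 2705 had an unadjusted p under 0.05.

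The calls of genes on these lists were refitted without 1 sample at a time. Of 14 low-stretch calls named by the rule, those of Plce1, Nes and Dusp1 were kept in all 9 fits. All 14 high-stretch calls were lost without high-stretch replicate 3 (adjusted p from 0.0601 to 0.248). Leaving out unstretched replicate 1 or 3 of experiment 1 lost 11 low-stretch calls each (adjusted p from 0.0522 to 0.172 and from 0.0675 to 0.214), leaving out unstretched replicate 2 lost 6 (0.0504 to 0.0924), and leaving out low-stretch replicates 1, 2, 3, 4 and 6 lost 3, 2, 2, 5 and 1. For high stretch, leaving out unstretched replicate 1 lost 11 (0.0543 to 0.177), unstretched replicate 2 lost 3 (0.064 to 0.0779), and high-stretch replicates 1 and 2 lost 12 (0.0687 to 0.197) and 7 (0.0687 to 0.143). Without unstretched replicate 3 of experiment 2 all 14 high-stretch calls remained.

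The genes whose profile over the 15 samples was most like that of each factor were found by the mean absolute difference of log2 CPM, after centring each gene on the unstretched samples of its experiment, among 13413 protein-coding genes tested in both comparisons. For Wt1 these were Enpep (0.244), Mme (0.265) and Itga1 (0.265), where the median gene differed by 1.123. Enpep and Mme encode the membrane peptidases aminopeptidase A and neprilysin, both found on podocytes and proximal tubule, and Itga1 an integrin chain. Their log2 changes under high stretch were -2.40, -2.01 and -1.88, values that the choice by likeness to Wt1 used and that carry no test here. For Klf15 the nearest genes were Kazn (0.195), Stc2 (0.237) and Fbxw26 (0.239), against a median of 0.999. For Lmx1b they were Zcchc3, Boc and Aig1 (0.105, 0.128 and 0.151, median 0.475), and for Foxc1 R3hdm2, Fan1 and Pih1d2 (0.083, 0.084 and 0.086, median 0.274). The nearness is a description over samples that share their unstretched controls.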

How the data were processed

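The gene table holds raw counts deposited by the authors for 15 samples of stretched and unstretched SVI podocytes, and the transcript table holds TPM deposited by the authors. The submitters' processing notes name STAR 2.7.5c, featureCounts, Subread 2.0.0, DESeq2 1.38.3, Salmon 1.9.0 and the build mm39, without their order or role. The strand setting of the counting is not given in the sources used here. GENCODE M21, a GRCm38 annotation, supplied symbols for 52135 genes, matched 137189 transcripts and supplied the transcript sequences. Because its build differs, no genome coordinates are printed.

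Groups came from the titles. The gene tests ran in edgeR 4.0.16 under R 4.3.3 (TMM, filterByExpr, quasi-likelihood F test, Benjamini-Hochberg adjustment at 0.05 over all genes tested). CPM used TMM-scaled library sizes over all 15 samples. Standard errors are the log2 fold change divided by the square root of F. Transcript usage was tested with limma 3.58.1 on log2((transcript TPM + 0.1)/(other TPM of the gene + 0.1)), for genes with a mean of at least 1 TPM and transcripts with a mean fraction from 0.05 to 0.95. Changes of low transcripts depend on the added 0.1 TPM and can be understated or overstated. The gene tests were tried on simulated counts of independent samples with a common dispersion and no runs of codes. For transcript usage, simulated normal log ratios were put through a simpler limma fit. Neither trial covers the spread or the correlation within runs of these data. The 6 factors and the gene lists were chosen with earlier results of these data known. Named were the 6 factors, at most 4 genes per list with the lowest p over both comparisons, and the 3 nearest profiles per tested factor. Profiles are of log2 CPM (prior count 2). Alternatives were DESeq2 1.42.0, RLE scaling, dropping the filter, a stricter filter (mean count 100), a joint fit of the 15 samples, blocks on replicate number or on the run of sample codes, other TPM settings and each sample left out in turn. Libraries held between 172211836 and 396658285 counts, and TPM carry no depth. Some list genes are counted but not reported here by name.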

Additional observations from a re-analysis of the deposited data

How the results depend on the processing

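Under low stretch 0 of the 4 tested factors passed, against 2 with DESeq2 (Wt1 and Klf15), 2 with no filter on low counts, 1 with all 15 samples in one fit and 3 with the run block. Leaving out 1 sample gave between 0 and 1. Under high stretch 2 passed, with every setting that kept all samples, and between 0 and 2 with 1 sample left out. Between the unstretched groups 0 passed, and between 0 and 2 with 1 sample left out. For the difference between effects 0 passed in every fit run. Counts over all genes moved more, from 1181 under low stretch to 2837 with DESeq2 and 6106 with the run block. They were 640 with all 15 samples and between 220 and 1630 without 1 sample. Under high stretch they moved from 643 to 1403 with DESeq2, 1050 with no filter, 414 with the mean count filter and 1488 with all 15 samples. They were 1546 with the run block and between 14 and 1421 without 1 sample.

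Same-numbered samples did not deviate together in every pair (correlations from -0.541 to 0.425 in experiment 1 and from -0.258 to 0.601 in experiment 2), so the main fits did not take the numbers as pairs. With the replicate block 1 factor passed under low stretch (Wt1, adjusted p = 0.0477, low-stretch replicates 4 to 6 left out), 2 under high stretch and 1 between the unstretched groups (Wt1, adjusted p = 0.0112), and 490 and 1546 genes passed under low and high stretch. In the replicate block the difference between effects was 0.29 for Klf15, with the opposite sign, the usage change of Wt1-202 under low stretch was 0.162 and the KTS share difference under low stretch was -3.59 (exact p = 0.25). Samples of the same run of codes correlated more in experiment 1 (0.4 to 0.665) than samples of other runs (-0.61 to -0.0929). In experiment 2 the runs hold the same pairs as the replicate numbers (-0.258 to 0.601, against -0.694 to 0.571 in other runs). Under high stretch the run block and the replicate block are therefore the same fit.

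Directions turned only for values that passed no test. Without 1 sample the ranges were -0.36 to 0.04 for Foxc1 under high stretch, and for the difference between effects -0.31 to 0.21 for Lmx1b, -0.37 to 0.08 for Foxc1 and -0.45 to 0.10 for Klf15. They were -0.16 to 0.14 for Col4a4 and -0.23 to 0.08 for Cd79a under low stretch, and -0.27 to 0.21 for Tcf12 and -0.58 to 0.11 for Klf9 under high stretch. For transcript usage they were -0.126 to 0.048 for Wt1-202 under low stretch, and -0.116 to 0.331 for Wt1-201 and -0.091 to 0.223 for Wt1-208 under high stretch. The KTS share difference ranged from -1.75 to 2.75 under low and from -12.37 to 4.81 percentage points under high stretch, and the retained-intron share difference from 4.3 to 6.63 (exact p = 0.0357 without low-stretch replicate 2) and from -3.89 to 3.98. With a pseudocount of 1 TPM the usage changes under low stretch were 0.102 for Wt1-201 and 0.336 for Wt1-202, and with 0.01 TPM that of Wt1-201 under high stretch was -0.229. The usage change of Wt1-202 under high stretch was 0.65 in the main fit, 0.304 with 0.01 TPM and 0.575 with 1 TPM. As a fraction on the linear scale it was 0.038. With a minimum of 5 TPM per gene no Wt1 transcript was tested, nor without unstretched replicate 3 of experiment 2. Over coding transcripts only, Wt1 was at 3.11 TPM in unstretched cells of experiment 1 and 0.208 TPM under high stretch, from 5.55 and 0.362. The few Wt1 counts under high stretch limit what can be said of its transcripts.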

Other observations

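Klf15 and Lmx1b transcripts were not part of any comparison above, and their TPM are given as values only. Klf15-201 was at 0.97 ± 0.335, 0.333 ± 0.32, 2.03 ± 0.557 and 0.804 ± 0.297 TPM in the unstretched and low-stretch groups of experiment 1 and the unstretched and high-stretch groups of experiment 2. Klf15-204 was at 1.47 ± 0.716, 0.612 ± 0.169 and 0.663 ± 0.438 TPM in the first 3 of these groups. In the high-stretch group Klf15-204 was listed at 0 in 2 samples and at 0.403 TPM in the other. Klf15-204 took 52% of the Klf15 TPM on average in unstretched cells of experiment 1 and 24.1% in those of experiment 2, with ranges from 35.5% to 69.1% and from 7.18% to 35.4%. For Lmx1b the main transcript, Lmx1b-201, took between 76.8% and 81.2% of the TPM on average in the 4 groups, and Lmx1b-203 took nearly all of the rest.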
